A study of Homo sapiens with 6 samples.

Results

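The genes described here are 10 mesenchymal transition factors and markers, ZEB1, ZEB2, SNAI1, SNAI2, TWIST1, CDH2, VIM, CD44, CHI3L1 and STAT3, taken by symbol from the 20263 Ensembl gene IDs of the deposited count table. All 10 passed the filter on low counts and were among the 14306 genes tested. They were measured by poly(A) RNA sequencing in U118, an established human glioma line that the labels call astroblastoma cells. The titles of all 6 libraries give day 2 and do not say from what event it is counted. RIPK2 had been knocked down by siRNA in 4 libraries (siRIPK2_1 to siRIPK2_4); 1 library came from cells with a control siRNA (siNC) and 1 from wild-type cells (WT), taken here as untransfected. All 6 libraries come from the same line, and the labels name no further allele or drug. The labels do not say whether the 4 siRIPK2 libraries come from different siRNAs or from separate cultures, so the variation between them, on which the p-values rest, may be technical. For the comparison with both controls the difference between siNC and WT enters that variation too. siNC and WT have no replicate.

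In epithelial cells, the zinc finger repressors ZEB1, ZEB2, SNAI1 and SNAI2 and the basic helix-loop-helix factor TWIST1 switch off E-cadherin and other adhesion genes, a program known as the epithelial-mesenchymal transition. Glial cells are not epithelial, but gliomas use the same factors, and in glioblastoma a mesenchymal expression state is marked by the hyaluronan receptor CD44 and the secreted chitinase-like protein CHI3L1. STAT3, a transcription factor activated through cytokine receptors and JAK kinases, is known as a master regulator of that state. CDH2 (N-cadherin) and VIM (vimentin, an intermediate filament protein) are the classical markers of mesenchymal cells.

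Total counts ranged from 37243009 to 45309423 in siRIPK2, against 33540619 in siNC and 35782060 in WT. Levels are given as CPM, counts scaled to library size with TMM factors. RIPK2, the target, was at 3.86, 11.9, 6.27 and 4.32 CPM in siRIPK2_1 to siRIPK2_4, against 43.4 CPM in siNC and 56.8 CPM in WT. Its unadjusted p was 8.17e-05 against both controls, but its adjusted p was 0.739 in edgeR, so not even the targeted gene passed over all genes. Of the 16 proneural and astrocyte markers 8 were tested, and the cells were not uniformly without them: NCAM1 was at 56.4 to 86.5 CPM in siRIPK2, 62.4 CPM in siNC and 73.3 CPM in WT, and the glutamate transporter gene SLC1A3 at 3.52 to 13.1 CPM in siRIPK2, 11.2 CPM in siNC and 6.33 CPM in WT. AQP4 and OLIG1 had 0 counts in all 6 libraries, and GFAP, the astrocyte filament gene, which overlaps other listed genes, stood between 0.531 and 0.777 CPM in siRIPK2, at 1.09 CPM in siNC and at 0.999 CPM in WT. In bulk RNA, fewer cells of a kind and less transcript per cell cannot be told apart.

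ZEB1 and STAT3 were the only 2 of the 10 genes whose 4 siRIPK2 levels all lay above both controls. Among all 14306 tested genes, 4.96% did so, and 5.5% lay below both controls in all 4 siRIPK2 libraries, as did 0 of the 10. At an unadjusted p under 0.05 in edgeR, 1 member (ZEB1) was higher against siNC and 0 were lower, among 3.56% and 1.21% of all tested genes (4.77% in either direction). Against both controls together 2 (ZEB1 and STAT3) were higher and 0 lower, among 1.32% and 1.23% of all genes (2.55% in either direction). Against WT 0 members were higher and 0 lower, among 0.664% and 0.419% (1.08% in either direction). After Benjamini-Hochberg adjustment over all genes no member passed in any comparison, and edgeR called 0% of genes in each (DESeq2 called 0.524% against siNC, 0.0629% against WT and 0.0719% against both controls, with 0 of the 10 members among them). The 3 comparisons share the 4 siRIPK2 libraries, so their values are not independent of each other.

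**Figure D1:**
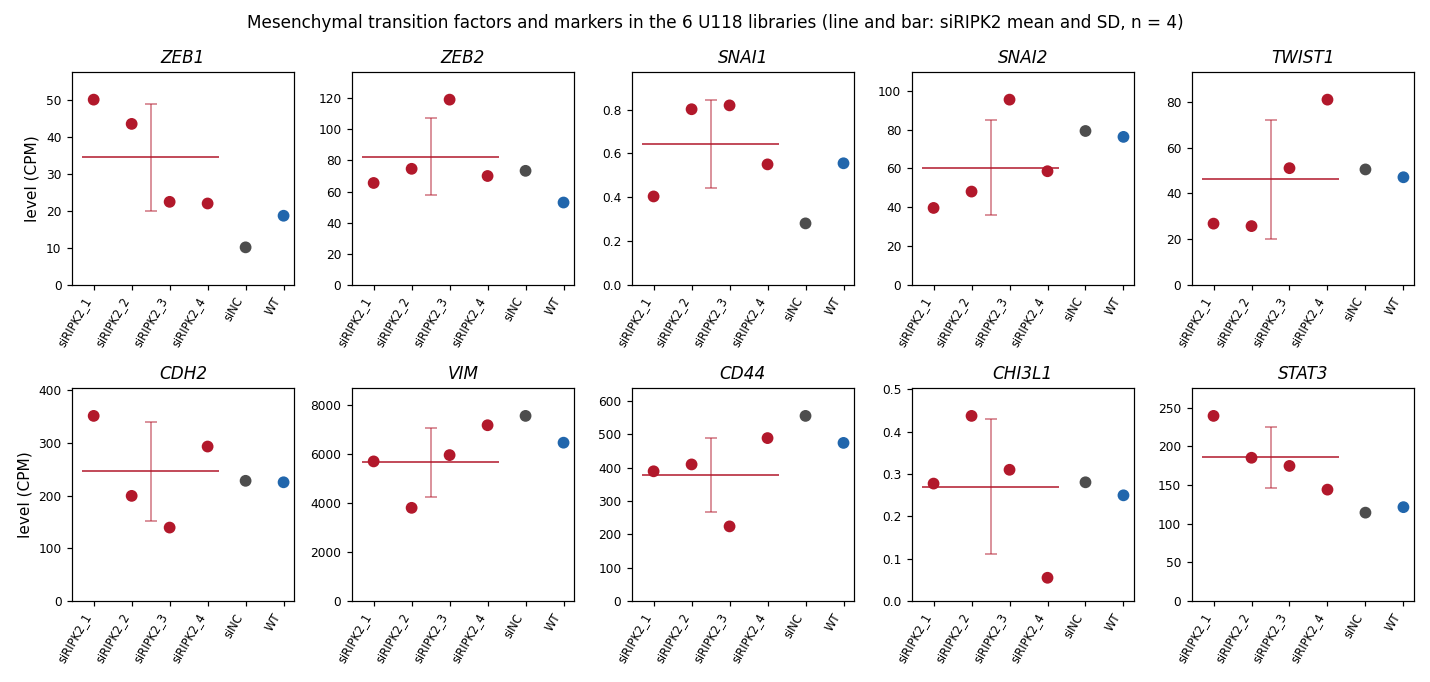
Level of each of the 10 genes (CPM, linear axes from 0, 1 panel per gene) in siRIPK2_1 to siRIPK2_4 (red), siNC (grey) and WT (blue); the line and bar are the siRIPK2 mean and SD, n = 4. ZEB1 and STAT3 lie above both controls in all 4 siRIPK2 libraries, and the other 8 panels show overlap with at least 1 control.

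The plot of levels by library shows how far the siRIPK2 libraries differ among themselves. Between the lowest and the highest of them the level differed 3.15-fold for TWIST1, 2.52-fold for CDH2, 2.41-fold for SNAI2, 2.28-fold for ZEB1 and 2.18-fold for CD44. It differed 1.89-fold for VIM, 1.82-fold for ZEB2 and 1.66-fold for STAT3. The SD of log2(CPM + 1) over the 4 libraries was 0.78 for TWIST1, 0.61 for ZEB1 and 0.59 for CDH2, against a median of 0.31 and a 90th percentile of 0.64 over the 10673 tested genes with a mean of at least 5 CPM. STAT3, at 0.30, varied about as much as the median gene.

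ZEB1 (ENSG00000148516, chromosome 10, 31318495 to 31529814, plus strand, GRCh38) encodes a repressor that binds paired E-boxes through separate clusters of zinc fingers. It was at 50.2, 43.6, 22.5 and 22.1 CPM in siRIPK2_1 to siRIPK2_4, against 10.2 CPM in siNC and 18.7 CPM in WT. The groups do not overlap, but siRIPK2_3 and siRIPK2_4 lay close to WT, whereas siRIPK2_1 and siRIPK2_2 lay far above it. The mean of 34.6 ± 14.5 CPM (SD, n = 4) was 341% of siNC and 185% of WT. In edgeR the log2 fold change was 1.77 against siNC (SE 0.594, unadjusted p of 0.0184, adjusted p of 0.972), 0.89 against WT (SE 0.555, unadjusted p of 0.151, adjusted p of 1) and 1.26 against both controls (SE 0.44, unadjusted p of 0.0191, adjusted p of 1.00). The siNC library itself stood below WT, with a log2 fold change of -0.88 (unadjusted p of 0.224 in edgeR), so the value against siNC is larger than that against WT. Over the alternatives ZEB1 had the lowest adjusted p of any member, 0.149, in the DESeq2 Wald test against siNC.

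The ZEB1 transcript is AT-rich (38.5% GC in its longest annotated transcript), and GC content moved with the comparison against siNC. Over the third of tested genes with the lowest GC content (30.2% to 44.0%), the median log2 fold change against siNC was 0.15, against -0.06 in the third with the highest. Against WT these medians were -0.0041 and 0.02. With a per-library offset for exon length and GC content, ZEB1 was at 1.53 against siNC, 0.94 against WT and 1.20 against both controls on the log2 scale, so the direction stayed and the value against siNC became smaller.

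Of all profiles over the 6 libraries, the 3 nearest to ZEB1 among 10673 genes were those of BICD2, a dynein cargo adaptor, SLK, a Ste20-like kinase, and KPNA5, an importin. Likeness was measured as the largest difference between centred log2(CPM + 1) values in any library, which was 0.43 for BICD2, 0.44 for SLK and 0.45 for KPNA5. BICD2 was at 143, 117, 83.1 and 99.4 CPM in siRIPK2_1 to siRIPK2_4, 30.0 CPM in siNC and 88.7 CPM in WT. Unlike ZEB1, these genes did not lie above both controls in all 4 siRIPK2 libraries. siRIPK2_3 was below WT for BICD2 and for SLK (86.9 against 88.2 CPM), and siRIPK2_4 for KPNA5 (7.51 against 8.41 CPM). The lowest library was siNC for each, at 37.6 CPM for SLK and 4.89 CPM for KPNA5. As siNC was also lowest for ZEB1, the choice by likeness to ZEB1 largely fixes this.

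STAT3 (ENSG00000168610, chromosome 17, 42313324 to 42388568, minus strand) was at 239, 185, 175 and 144 CPM in siRIPK2_1 to siRIPK2_4, against 114 CPM in siNC and 121 CPM in WT. Here the 2 controls lay close together, and even the lowest siRIPK2 library stood above both. The mean of 186 ± 39.8 CPM (SD, n = 4) was 163% of siNC and 153% of WT. The log2 fold change in edgeR was 0.70 against siNC (SE 0.355, unadjusted p of 0.0847), 0.61 against WT (SE 0.353, unadjusted p of 0.121) and 0.66 against both controls (SE 0.244, unadjusted p of 0.0251), with an adjusted p of 1.00 in each. Leaving out single libraries, the unadjusted p against both controls in edgeR ranged from 0.0127 to 0.114 for STAT3 and from 0.0107 to 0.146 for ZEB1. The length and GC offset left STAT3 at 0.71, 0.63 and 0.67 against siNC, WT and both controls.

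STAT3 and ZEB1 ordered the 6 libraries in the same way, with siRIPK2_1 highest, then siRIPK2_2, siRIPK2_3, siRIPK2_4, WT and siNC. The shared order was noticed in these values and is given as a description; lying above both controls fixes part of it. Residual RIPK2 had another order, with siRIPK2_2 highest among the knockdown libraries and siRIPK2_1 lowest.

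The promoters of these genes are shown because ZEB1 and STAT3 are the members that lay above both controls and ZEB2 is the closest relative of ZEB1. The sequences are RefSeq windows on GRCh38.p14, from 250 bases before to 50 bases after an annotated transcription start, in the direction of the gene. ZEB1 has 7 such windows, and gene counts do not tell which start these cells used; the one printed holds the most E-boxes. Capitals mark CACCTG on either strand (CAGGTG when read along the gene), the E-box that ZEB and Snail factors bind. The positions are ZEB1 at chr10:31318966-31319265 on the plus strand, ZEB2 at chr2:144520070-144520369 on the minus strand and STAT3 at chr17:42388393-42388692 on the minus strand.
ZEB1: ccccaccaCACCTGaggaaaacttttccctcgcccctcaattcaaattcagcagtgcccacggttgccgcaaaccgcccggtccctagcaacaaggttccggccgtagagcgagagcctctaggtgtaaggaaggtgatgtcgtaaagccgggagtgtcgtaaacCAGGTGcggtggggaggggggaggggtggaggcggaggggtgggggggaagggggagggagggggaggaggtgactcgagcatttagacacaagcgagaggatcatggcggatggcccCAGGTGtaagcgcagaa
ZEB2: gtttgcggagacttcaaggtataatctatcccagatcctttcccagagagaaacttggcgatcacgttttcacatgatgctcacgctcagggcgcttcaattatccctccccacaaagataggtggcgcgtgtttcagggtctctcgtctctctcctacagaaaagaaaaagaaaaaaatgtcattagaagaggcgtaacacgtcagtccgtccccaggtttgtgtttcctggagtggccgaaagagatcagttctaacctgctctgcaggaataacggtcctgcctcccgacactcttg
STAT3: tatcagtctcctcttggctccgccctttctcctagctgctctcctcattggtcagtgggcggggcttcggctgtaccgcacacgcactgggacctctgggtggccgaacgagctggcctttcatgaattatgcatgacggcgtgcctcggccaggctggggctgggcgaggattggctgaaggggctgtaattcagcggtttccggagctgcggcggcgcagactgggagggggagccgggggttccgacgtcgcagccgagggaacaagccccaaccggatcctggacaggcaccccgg
The ZEB1 window holds 3 matches, which begin at positions -242, -85 and 33 from the start. The ZEB2 and STAT3 windows hold 0. Windows were available for 7 of the 10 members, 14 windows in all, of which 3 held CACCTG (2 of ZEB1 and that of CHI3L1), against 20.6% of all 35116 windows. The palindromic STAT motif TTCNNNGAA was found in 0 of the 14 and in 7.66% of all windows. A match or its absence describes these letters only.

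ZEB2 (ENSG00000169554, chromosome 2) encodes the second ZEB repressor. It was at 65.5, 74.6, 119 and 70.0 CPM in siRIPK2_1 to siRIPK2_4, against 73.3 CPM in siNC and 52.9 CPM in WT. All 4 siRIPK2 libraries lay above WT, as in 11.5% of all tested genes, but siNC lay in their midst and siRIPK2_3 stood apart as the highest. The log2 fold change was 0.17 against siNC (unadjusted p of 0.684) and 0.64 against WT (unadjusted p of 0.159) in edgeR. Like ZEB1 it has an AT-rich transcript (39.1% GC), and with the length and GC offset its value against siNC turned to -0.14; without siRIPK2_3 it was -0.07. Unlike ZEB1, it did not peak in siRIPK2_1 and siRIPK2_2.

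SNAI2 (Slug, ENSG00000019549, chromosome 8), a Snail family repressor abundant in neural crest derivatives, was at 39.6, 48.1, 95.4 and 58.5 CPM in siRIPK2_1 to siRIPK2_4, against 79.3 CPM in siNC and 76.3 CPM in WT. It lay below both controls in 3 of the 4 siRIPK2 libraries and above both in siRIPK2_3. Its log2 fold change was -0.36 against both controls (SE 0.334, unadjusted p of 0.305 in edgeR). Without siRIPK2_3, the library above both controls, this was -0.67, with an unadjusted p of 0.0222 and an adjusted p of 0.998 in edgeR. Without siRIPK2_1, siRIPK2_2 or siRIPK2_4 it was -0.22, -0.27 or -0.35 (unadjusted p of 0.497, 0.471 and 0.378 in edgeR). How far SNAI2 departs from the controls thus depended on the library left out.

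TWIST1 (ENSG00000122691, chromosome 7), which binds E-boxes as a dimer with E proteins, was at 26.7, 25.7, 51.0 and 80.9 CPM in siRIPK2_1 to siRIPK2_4, against 50.4 CPM in siNC and 47.0 CPM in WT. The 2 controls differed little, and the siRIPK2 libraries lay on both sides of them, with siRIPK2_1 and siRIPK2_2 below and siRIPK2_3 and siRIPK2_4 above. The mean of 46.1 ± 26.0 CPM (SD, n = 4) was therefore 91.4% of siNC and 98.0% of WT, with a log2 fold change of -0.08 against both controls (unadjusted p of 0.862 in edgeR). Without siRIPK2_1 or siRIPK2_2 the sign turned (0.10 and 0.12). siRIPK2_1 and siRIPK2_2, the highest libraries in ZEB1 and STAT3, were the lowest in TWIST1 and SNAI2. That contrast, too, was noticed in these values and is a description only.

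**Figure D2:**
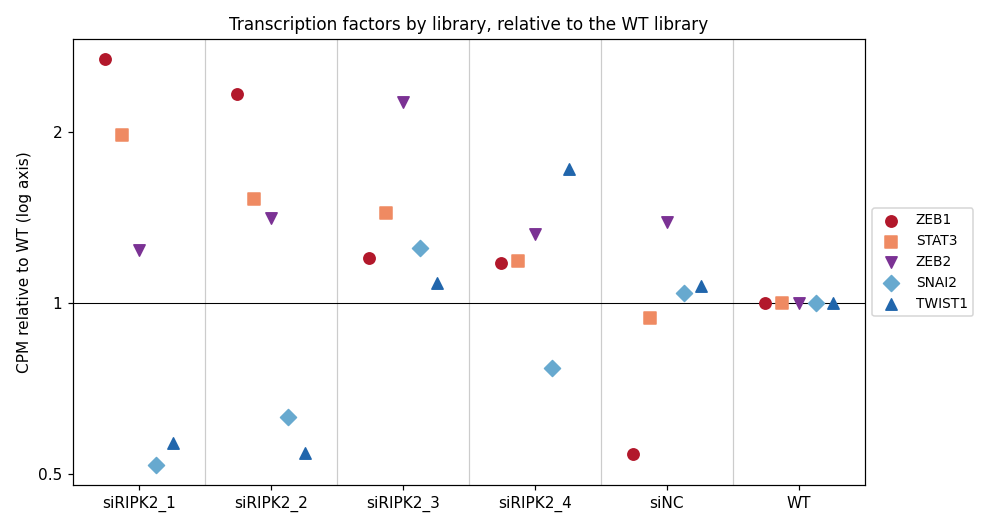
Level of 5 transcription factors in each library, divided by the WT level (log axis, 1 symbol per gene, WT at 1 by construction). ZEB1, STAT3 and ZEB2 are above 1 in all 4 siRIPK2 libraries, as are 11.5% of all tested genes. SNAI2 and TWIST1 are below 1 in siRIPK2_1 and siRIPK2_2.

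SNAI1 (Snail, ENSG00000124216, chromosome 20) was close to the limit of detection. It had 16, 33, 37 and 20 counts in siRIPK2_1 to siRIPK2_4, against 9 counts in siNC and 20 counts in WT. That is 0.404 to 0.819 CPM in siRIPK2, 0.280 CPM in siNC and 0.555 CPM in WT, where 3 counts, the floor used here for counting error, correspond to between 0.0664 and 0.0935 CPM. All 4 siRIPK2 libraries exceeded siNC, as in 19.3% of tested genes, but 2 of them exceeded WT. The log2 fold change was 1.19 against siNC with an SE of 0.824 (unadjusted p of 0.187 in edgeR), so it was within the spread at this depth.

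Among the markers, VIM (ENSG00000026025, chromosome 10) had the highest level of the 10 genes, with 5710, 3812, 5969 and 7190 CPM in siRIPK2_1 to siRIPK2_4, against 7572 CPM in siNC and 6476 CPM in WT. All 4 siRIPK2 libraries lay below siNC, as in 17.3% of tested genes, and siRIPK2_4 lay above WT. The mean of 5670 ± 1397 CPM (SD, n = 4) was 74.9% of siNC and 87.6% of WT. The log2 fold change was -0.42 against siNC (unadjusted p of 0.236) and -0.19 against WT (unadjusted p of 0.577) in edgeR. Without siRIPK2_2, the library with the lowest VIM, these were -0.27 and -0.042, and without siRIPK2_4 they were -0.55 and -0.33.

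CD44 (ENSG00000026508, chromosome 11) was at 389, 410, 224 and 489 CPM in siRIPK2_1 to siRIPK2_4, against 556 CPM in siNC and 475 CPM in WT. All 4 siRIPK2 libraries lay below siNC, as in 17.3% of tested genes, and 3 of them lay below WT. Whether the groups overlap depends on the scaling: without the TMM factors siRIPK2_4 stood at 477.4 CPM and WT at 477.9 CPM, and all 4 siRIPK2 libraries were below both controls. With the TMM factors 5.5% of tested genes lay below both controls in all 4 siRIPK2 libraries. The share without the factors was not computed. The log2 fold change was -0.56 against siNC (SE 0.396, unadjusted p of 0.2) and -0.33 against WT (SE 0.402, unadjusted p of 0.439) in edgeR. Gene counts do not separate the standard and variant isoforms of CD44.

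CDH2 (ENSG00000170558, chromosome 18) was at 352, 200, 140 and 293 CPM in siRIPK2_1 to siRIPK2_4, against 228 CPM in siNC and 226 CPM in WT. The 2 controls were nearly equal, with 2 siRIPK2 libraries above both and 2 below both. Its log2 fold change against both controls was 0.12 (unadjusted p of 0.742 in edgeR) and -0.11 without siRIPK2_1. The libraries with the highest and lowest CDH2, siRIPK2_1 and siRIPK2_3, were the lowest and highest for SNAI2. This pairing was noticed in these values and is given as a description only.

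CHI3L1 (ENSG00000133048, chromosome 1), a marker of the mesenchymal state in glioblastoma tissue, was hardly expressed in U118 cells. It had 11, 18, 14 and 2 counts in siRIPK2_1 to siRIPK2_4, against 9 counts each in siNC and WT. The value of siRIPK2_4 is under the floor of 3 counts. At this depth a difference was not detectable, and the SE of the log2 fold change against siNC was 1.10.

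**Figure D3:**
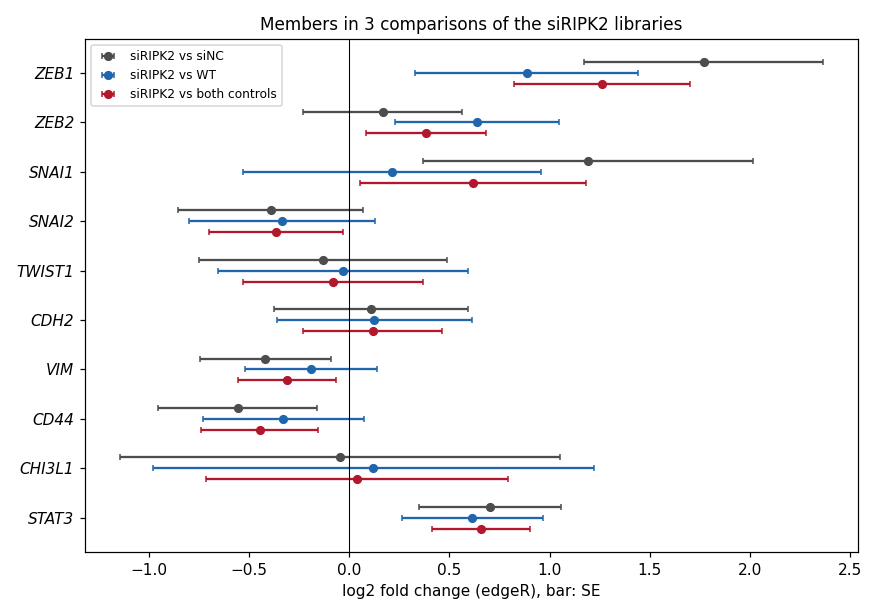
Log2 fold change (points) and SE (bars) of the 10 genes in edgeR for siRIPK2 against siNC (grey), WT (blue) and both controls (red). ZEB1 lies furthest from 0 against siNC and against both controls (1.77 and 1.26), STAT3 lies at 0.61 to 0.70 in all 3, and CHI3L1 has the widest bars.

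Set per length of exon, the levels in siRIPK2 differed widely between the genes. In CPM per kilobase of annotated exon the mean was 1099 for VIM, 49.7 for CDH2, 37.8 for CD44, 22.7 for TWIST1, 21.1 for STAT3, 17.8 for SNAI2, 4.00 for ZEB1, 3.29 for ZEB2, 0.382 for SNAI1 and 0.0792 for CHI3L1. From CDH2 down to SNAI2, each gene's range over the 4 siRIPK2 libraries overlapped that of its neighbour, as did the ranges of ZEB1 and ZEB2. The ranges did not meet between VIM and CDH2, between SNAI2 (lowest 11.7) and ZEB1 (highest 5.81), between ZEB2 (lowest 2.61) and SNAI1 (highest 0.486), or between SNAI1 (lowest 0.239) and CHI3L1 (highest 0.128). In siNC, where ZEB1 was at 1.17 and ZEB2 at 2.93 CPM per kilobase, ZEB2 was the higher of the pair, and in WT they were at 2.17 and 2.11. The length used is the union of all annotated exons (25058 bases for ZEB2 and 8650 for ZEB1), so the value of a gene with many annotated isoforms is a low estimate.

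The related genes are described by lists chosen for these factors and markers. Over all tested genes the median log2 fold change was 0.02 relative to siNC, 0.01 relative to WT and 0.01 relative to both controls. For the 10 members the medians were 0.03, 0.12 and 0.08 in the same order. No gene of these lists passed after adjustment in edgeR, so what follows are values and counts at an unadjusted p under 0.05 against siNC, to be read against the 3.56% of all tested genes that were higher and the 1.21% that were lower. The examples are the genes of each list with the lowest unadjusted p against siNC, so a distance between siNC and the other libraries is built into their choice. Each median against siNC or WT rests on 1 control library, and both are given. For genes named as above or below both controls in all 4 siRIPK2 libraries, the shares over all tested genes were 4.96% and 5.5%.

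Other transcription factors and corepressors of the transition had a median of -0.16 against siNC and 0.0051 against WT. Of the 17 genes 16 were tested, with 0 higher and 0 lower against siNC. TCF3, an E protein that pairs with TWIST1, was at 77.9, 97.4, 74.7 and 146 CPM in siRIPK2_1 to siRIPK2_4, against 52.0 CPM in siNC and 146 CPM in WT. HDAC1, a deacetylase of Snail complexes, was at 145 ± 30.9 CPM (SD, n = 4) in siRIPK2, 91.3 CPM in siNC and 149 CPM in WT. The demethylase gene KDM1A was at 129 ± 20.4 CPM in siRIPK2, 168 CPM in siNC and 125 CPM in WT, and the methyltransferase gene EZH2 at 26.9 to 49.96 CPM in siRIPK2, 52.4 CPM in siNC and 38.3 CPM in WT.

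The other master regulators of the mesenchymal glioma state had a median of -0.38 against siNC and 0.06 against WT, with 0 of 10 higher and 0 lower against siNC. CEBPD encodes a C/EBP factor that acts with STAT3. It was the only 1 of them above both controls in all 4 siRIPK2 libraries, as were 4.96% of all tested genes. It was at 14.4, 16.7, 10.5 and 14.8 CPM in siRIPK2_1 to siRIPK2_4, against 7.98 CPM in siNC and 7.96 CPM in WT, with an unadjusted p of 0.0781 against siNC and 0.0173 against both controls in edgeR. CEBPB, which encodes its partner, was at 187 ± 34.9 CPM in siRIPK2, 251 CPM in siNC and 181 CPM in WT. RUNX1 was at 52.7 ± 7.85, 75.9 and 46.5 CPM and RELB at 14.6 ± 4.01, 21.3 and 9.55 CPM in the same order, so for these the siRIPK2 mean lay between WT and siNC, while single siRIPK2 libraries lay below WT for CEBPB (siRIPK2_1 and siRIPK2_4) and RUNX1 (siRIPK2_4). FOSL2, an AP-1 gene, was the 1 gene of this list with an unadjusted p under 0.05 against WT, with 202 ± 45.4 CPM (SD, n = 4) in siRIPK2, 163 CPM in siNC and 366 CPM in WT; it was named after its values were seen.

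Upstream of STAT3, the list of cytokines, receptors and kinases had a median of -0.21 against siNC, with 1 of 15 higher and 2 lower at an unadjusted p under 0.05. The cytokine gene IL11 was at 0.429, 0.316, 0.997 and 0.467 CPM in siRIPK2_1 to siRIPK2_4, against 2.99 CPM in siNC and 0.999 CPM in WT (unadjusted p of 0.00623 against siNC in edgeR). IL6, which overlaps STEAP1B, was at 2.40 ± 1.12 CPM (SD, n = 4) in siRIPK2, 8.91 CPM in siNC and 2.66 CPM in WT. IL6ST, the shared receptor subunit gp130, was at 159 ± 7.33 CPM in siRIPK2, 99.2 CPM in siNC and 160 CPM in WT. IL11 was below both controls in all 4 siRIPK2 libraries, in siRIPK2_3 by a narrow margin (unadjusted p of 0.0134 against both controls in edgeR). PTPN11, which overlaps RPL6, was at 270 ± 49.3, 173 and 253 CPM in siRIPK2, siNC and WT.

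Genes known as STAT3 targets had a median of -0.14 against siNC and 0.20 against WT, with 1 of 15 higher and 1 lower against siNC. The higher one, BIRC5 (survivin), was at 72.1, 41.0, 46.5 and 177 CPM in siRIPK2_1 to siRIPK2_4, against 18.2 CPM in siNC and 65.9 CPM in WT, so it spread over WT. The lower one was IL6. VEGFA was at 149 ± 38.7 CPM in siRIPK2, 254 CPM in siNC and 178 CPM in WT. Of the 15, CEBPD alone lay above both controls in all 4 siRIPK2 libraries, as did 4.96% of all tested genes. Its order of the siRIPK2 libraries differed from that of STAT3, with siRIPK2_2 highest and siRIPK2_3 lowest.

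Mesenchymal cell markers had a median of -0.09 against siNC and 0.03 against WT, with 0 of 20 higher and 1 lower against siNC. The lower one, LOXL2, a collagen crosslinking oxidase gene that overlaps ENTPD4, was at 169 ± 39.1 CPM in siRIPK2, 301 CPM in siNC and 155 CPM in WT. MMP2, a gelatinase gene, was at 941, 1217, 1172 and 834 CPM in siRIPK2_1 to siRIPK2_4, against 1575 CPM in siNC and 1311 CPM in WT, below both controls in all 4 (unadjusted p of 0.058 against both controls in edgeR). TPM2 was at 9.28 ± 2.00, 4.86 and 11.1 CPM and S100A4 at 94.4 ± 27.6, 155 and 84.9 CPM in siRIPK2, siNC and WT.

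Markers of the mesenchymal glioma subtype had a median of -0.29 against siNC and -0.09 against WT, with 0 of 16 higher and 2 lower against siNC. S100A10, an annexin A2 partner, was at 143, 357, 338 and 176 CPM in siRIPK2_1 to siRIPK2_4, against 629 CPM in siNC and 234 CPM in WT. TGFBI, a matrix protein induced by TGF-beta, was at 73.1 ± 36.3 CPM (SD, n = 4) in siRIPK2, 187 CPM in siNC and 78.3 CPM in WT. LGALS1 was at 1396 ± 328, 2124.5 and 1701 CPM and PLAUR at 68.4 ± 15.6, 102 and 69.1 CPM in the same order.

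The partners of CD44, the ERM linkers, hyaluronan synthases and sheddases, had a median of 0.25 against siNC and -0.03 against WT, with 0 of 12 higher and 0 lower against siNC. HAS3, a hyaluronan synthase gene that overlaps CHTF8, was at 15.5, 4.30, 8.42 and 8.85 CPM in siRIPK2_1 to siRIPK2_4, against 4.18 CPM in siNC and 3.55 CPM in WT, above both in all 4 (unadjusted p of 0.0292 against both controls in edgeR). ADAM10, a CD44 sheddase gene, was at 107 ± 9.55 CPM in siRIPK2, 69.6 CPM in siNC and 115 CPM in WT. Moesin (MSN) was at 1124 ± 216, 1469 and 1207 CPM, and HMMR, a hyaluronan-binding mitotic protein gene, at 27.8 ± 14.2, 16.3 and 28.6 CPM in the same order.

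In the cadherin and catenin list the median was -0.13 against siNC and 0.07 against WT, with 0 of 8 tested genes higher and 0 lower against siNC. CDH11, a mesenchymal cadherin gene, was at 278, 290, 238 and 235 CPM in siRIPK2_1 to siRIPK2_4, against 179 CPM in siNC and 232 CPM in WT, so 2 of the siRIPK2 libraries lay just above WT. CDH6 was at 33.6 ± 8.94, 22.5 and 31.2 CPM, CDH13 at 159 ± 75.4, 267 and 248 CPM, and CTNNB1 (beta-catenin) at 435 ± 150, 550 and 453 CPM in siRIPK2, siNC and WT. Among filaments and partners of vimentin the median was -0.18 against siNC and -0.33 against WT, with 0 of 8 higher and 0 lower against siNC. DES (desmin), named after its values were seen, was the 1 gene lower against WT and against both controls (unadjusted p of 0.0381 and 0.011 in edgeR). It had 4, 13, 10 and 6 counts in siRIPK2_1 to siRIPK2_4, against 21 counts in siNC and 28 counts in WT. NES (nestin) was at 73.1, 49.5, 19.5 and 43.1 CPM in siRIPK2_1 to siRIPK2_4, against 18.5 CPM in siNC and 69.1 CPM in WT. SYNM was at 78.2 ± 38.7, 38.1 and 83.4 CPM, FLNA at 4045 ± 704, 5966 and 4767 CPM and PLEC at 2904 ± 235, 2256 and 2436 CPM in siRIPK2, siNC and WT.

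Of 23 epithelial genes that these factors repress elsewhere, 13 were tested, 5 had at most 3 counts in every library, and GRHL2 and OVOL2 had 0 counts in all 6. CDH1 (E-cadherin), which did not pass the filter, had 0, 1, 3 and 1 counts in siRIPK2_1 to siRIPK2_4, against 2 counts in siNC and 0 counts in WT. The median against siNC was -0.04, with 0 higher and 0 lower, and was the same with ESRP1, at 0 counts in siNC, set to its bound. Relative to WT the median was 0.24. PKP3 was at 9.51 ± 4.18, 16.5 and 10.5 CPM, CLDN4 at 3.53 ± 1.20, 2.46 and 2.55 CPM, OCLN at 2.73 ± 1.12, 3.27 and 3.16 CPM and TJP1 at 127 ± 32.8, 118.3 and 117 CPM in siRIPK2, siNC and WT. The summed level of the list ranged from 114 to 190 CPM in siRIPK2, against 157 CPM in siNC and 149 CPM in WT, most of it TJP1.

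Proneural glioma and astrocyte markers had a median of 0.22 against siNC and 0.02 against WT, with 8 of 16 tested and 0 higher or lower against siNC. SOX2, a stem cell factor, was at 14, 3.94, 0.908 and 4.76 CPM in siRIPK2_1 to siRIPK2_4, against 0.748 CPM in siNC and 2.58 CPM in WT. siRIPK2_1, the library with the highest ZEB1 and STAT3, was highest in SOX2 and, at 122 CPM against 48.2 to 68.5 CPM in the other siRIPK2 libraries, 47.5 CPM in siNC and 66.1 CPM in WT, in SOX9. This match was noticed after the values were seen. PDGFRA, which overlaps another listed gene, was lowest in siRIPK2_1, with 138, 169, 253 and 428 CPM in siRIPK2_1 to siRIPK2_4, against 194 CPM in siNC and 283 CPM in WT. Of the macrophage and microglia markers 3 of 10 were tested, with a median of 0.34 against siNC and -0.03 against WT. Relative to siNC 0 were higher or lower. AIF1, P2RY12, TYROBP and C1QA had 0 counts in all libraries. The summed level was 108 to 149 CPM in siRIPK2, 95.2 CPM in siNC and 167 CPM in WT. CD68, a lysosomal gene not limited to macrophages, gave most of it (133 ± 19.5, 91.1 and 164 CPM), and CSF1R was at 2.78 ± 1.18, 3.49 and 1.97 CPM. Endothelial markers summed to between 4.01 and 10.6 CPM in siRIPK2, 10.4 CPM in siNC and 6.55 CPM in WT, with TEK at 0 counts, and 0 of 7 tested were higher or lower. Their median was -0.53 against siNC and -0.21 against WT. CDH5 was at 1.71 ± 1.79, 3.49 and 0.805 CPM, ESAM at 1.98 ± 0.837, 2.87 and 1.42 CPM and PECAM1 at 1.30 ± 0.969, 1.99 and 1.53 CPM in siRIPK2, siNC and WT.

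**Figure D4:**
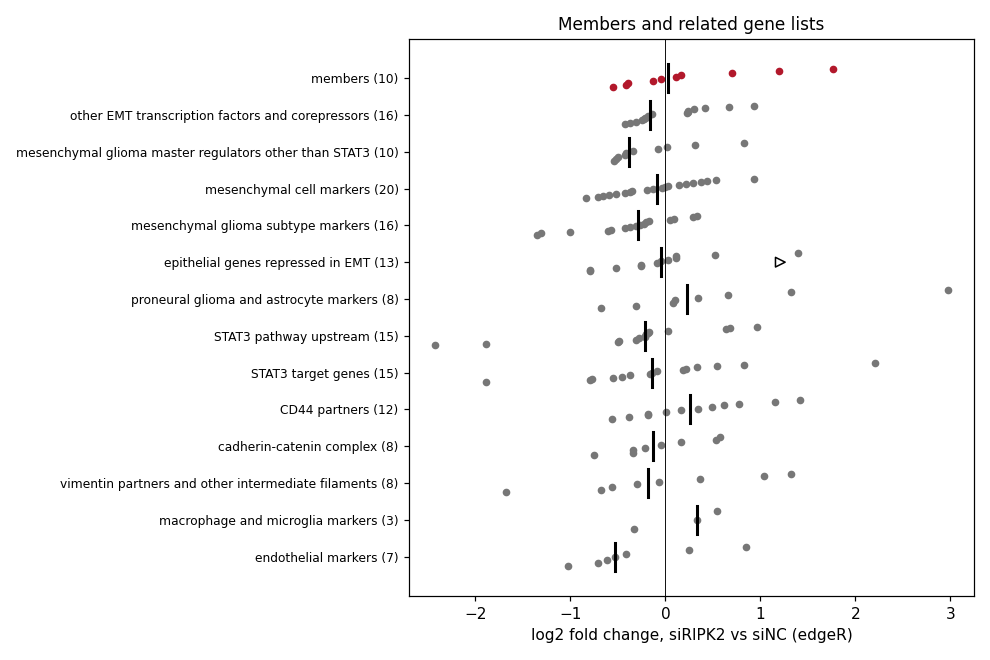
Log2 fold change of siRIPK2 against siNC in edgeR for each tested gene of the 10 members (red) and of 13 related lists (grey, number of tested genes in brackets), with the median as a bar and ESRP1, at 0 counts in siNC, as an open lower bound. The members spread from -0.56 (CD44) to 1.77 (ZEB1) around a median of 0.03. The mesenchymal glioma regulators and subtype markers have medians of -0.38 and -0.29 here. Relative to WT, which is not drawn, these medians were 0.06 and -0.09.

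Between the controls themselves, siNC and WT, 0 of the 10 members were higher and 0 lower at an unadjusted p under 0.05 in edgeR, where 0.643% and 2.09% of all tested genes were (2.73% in either direction; DESeq2 called 0.0769%). The furthest apart were SNAI1 (log2 fold change -0.98, from 9 and 20 counts), ZEB1 (-0.88) and ZEB2 (0.47). CDH2 (0.02), SNAI2 (0.06) and STAT3 (-0.09) were the closest. The choice of control therefore moved the value of ZEB1 and ZEB2 more than that of STAT3. By direction alone, 8 of the other mesenchymal glioma regulators were higher in siNC than in WT and 2 lower, with a median of 0.25. Of the mesenchymal glioma subtype markers 13 were higher in siNC and 3 lower, with a median of 0.21. Over all tested genes the median for siNC against WT was -0.0017, and their share by direction alone was not counted.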

How the data were processed

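The deposited table holds raw counts per Ensembl gene ID, 1 column per library, with no normalisation by the authors per the labels. FastQC, Trimmomatic, HISAT2, bedtools and the build GRCh38 are named in the submitters' processing notes. The labels state neither annotation release nor strand setting, so reads of overlapping genes cannot be told apart; no member has exons overlapping another listed gene. Symbols were matched for 20148 of 20263 IDs, and GENCODE 29 gave coordinates, exon lengths and GC content.

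The main test was edgeR's quasi-likelihood test (edgeR 4.0.16, R 4.3.3) after TMM scaling and filterByExpr (minimum count 10), with Benjamini-Hochberg adjustment over all genes and a threshold of 0.05. A fit with 3 groups gave the comparisons with siNC and WT, and 1 with 2 groups that with both controls. In the first, the residual spread comes from the siRIPK2 libraries (3 degrees of freedom), so each lone control is assumed to vary as they do; in the second (4 degrees of freedom) it also holds the difference between siNC and WT. The biological coefficient of variation was 33.7%. Alternatives were DESeq2 1.42.0, limma-voom (limma 3.58.1), DESeq2 size factors, no filter, an offset for length and GC content (mgcv 1.9.3) and leaving out each library. The fits were tested on simulated data. Chi-square per degree of freedom between library pairs was 77.1 or more, so no library was a duplicate. From each related list, up to 4 genes with a mean of at least 1 CPM and the lowest unadjusted p against siNC were named. For each member with an unadjusted p under 0.05 there, the 3 genes of at least 5 CPM with the nearest profile were named. The members and lists were chosen with earlier results of these data known. Floors cover counting error only.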

Additional observations from a re-analysis of the deposited data

Results flagged for a closer look

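ZEB2 was highest in siRIPK2_3, at 119.1 CPM, against 65.5 to 74.6 CPM in the other siRIPK2 libraries, a gap that is large for the range of 4 values. By chance about 1 in 20 such groups shows a gap of this size, and 11 genes were looked at. No other member, nor RIPK2, had such a library.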

How the results depend on the processing

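No alternative brought a member past the adjusted threshold. edgeR called 0 genes in every comparison. DESeq2's Wald test called 75 relative to siNC, 9 relative to WT, 10 relative to both controls and 11 between siNC and WT; limma-voom and the fit without a filter each called 1 relative to WT. With 1 library left out, 0 to 2 genes were called relative to both controls (2 without siRIPK2_1 and 2 without siRIPK2_2). RIPK2 relative to both controls passed in DESeq2 (log2 fold change -2.92, adjusted p of 1.85e-06) and without siRIPK2_2 (-3.38, adjusted p of 0.0431 in edgeR), ranging from -3.38 to -2.73 over the left-out libraries.

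With the length and GC offset, log2 fold changes near 0 turned sign for ZEB2 (-0.14 relative to siNC), TWIST1 (0.022 relative to siNC, 0.0019 relative to both controls and -0.039 for siNC relative to WT) and CHI3L1 (0.055 relative to siNC). In limma-voom CHI3L1 was at -0.15 relative to WT and -0.24 relative to both controls. Leaving out single libraries also turned signs. ZEB2 ranged from -0.067 to 0.25 relative to siNC. TWIST1 ranged from -0.55 to 0.068 relative to siNC, -0.45 to 0.17 relative to WT and -0.50 to 0.12 relative to both controls. CDH2 ranged from -0.13 to 0.30, -0.10 to 0.32 and -0.11 to 0.31 in the same order, and CHI3L1 from -0.37 to 0.28, -0.20 to 0.45 and -0.28 to 0.36. The cause was not tested. The directions of ZEB1, STAT3, SNAI1, SNAI2, VIM and CD44 in the 3 comparisons of siRIPK2 held under each alternative run.

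No paired analysis was possible because siNC and WT have 1 library each, so the groups share fewer than 2 replicate numbers. SNAI1 and CHI3L1 are limited by depth, with at most 37 and 18 counts in any library.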
